A study of Mus musculus with 8 samples.

Results

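The chromatin of mouse embryonic fibroblasts (MEFs) on day 10 of reprogramming was compared with that of embryonic stem cells (ESCs), the state that reprogramming is meant to reach. The open sites came from ATAC-seq, in which a transposase cuts and tags accessible DNA, and each group was given as 1 list of peaks for its 2 libraries. An ESC peak was counted as lacked at day 10 when no day 10 peak shared at least 1 bp with it, and as held otherwise. A day 10 peak was counted as excess when no ESC peak shared at least 1 bp with it. By this rule 29552 of the 48486 ESC peaks were lacked, 60.9%, and 16361 of the 35226 day 10 peaks were excess, 46.4%. The series held 176445 peaks in 4 lists, the others being those of MEFs and of OSKM day 5.

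The day 10 cells were C57BL/6J-OG2 MEFs, which carry a green reporter driven by Oct4, infected with retroviruses for Oct4 (Pou5f1), Sox2, Klf4 and Myc (OSKM) together with a FLAG control vector. They were wild type and were grown in ESC medium with vitamin C, and the whole culture was taken without sorting. The ESCs were wild type and received no factor. Their strain was given as C57Bl6J for replicate 1 and C57BL/6J-OG2 for replicate 2. The labels place the ESCs on feeder cells in serum with LIF, whereas the study's methods describe gelatin with 2 inhibitors and LIF, so culture medium and cell state cannot be told apart between the groups. MEFs and OSKM day 5 cells, of the C57BL/6J-OG2 strain as well, served here only to say where a peak had been listed before. In such bulk samples fewer cells with a site open and less opening per cell cannot be told apart. With 1 list per group there was no replicate check, and the 95% intervals given below (Wilson for a share, Newcombe for a difference) cover counting error only.

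In reprogramming, the exogenous factors bind fibroblast chromatin, genes of the somatic programme close, an epithelial programme opens, and the endogenous pluripotency network is switched on late. That network includes Nanog, Esrrb, Klf5, Tfcp2l1 and Nr5a2, transcription factors that bind each other's enhancers and keep ESCs undifferentiated. Open promoters are shared by many cell types, whereas distal open sites, most of them enhancers or insulators, mark the identity of a cell.

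The pluripotency markers looked at to check the labels were open at their start sites in ESCs for 6 of 8 genes, and at day 10 for 2 of 8, Tfcp2l1 and Tdh. MEFs also had start-site peaks at 2 of these 8 genes, Esrrb and Tfcp2l1. The 8 markers had 62 nearest ESC peaks and 15 nearest day 10 peaks. Fibroblast markers had start-site peaks for 8 of 8 genes in MEFs and for 3 of 8 at day 10, namely Col1a2, Pdgfrb and Fbln2. ESCs had them for 2 of the 8, Col1a2 and Fbln2. The day 10 cells, which the labels call intermediate, thus had few defining pluripotency start sites open.

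Examples of the lacked and excess regions are printed here from the mm10 (GRCm38) reference, + strand, as the central 200 bp of the peak. The first set, shown because the binding sequence of ESRRB set lacked sites apart, are 3 ESC peaks with no peak in the other 3 lists, and capitals mark the ESRRB match. They lie at chr19:53064599-53064798 (inside the noncoding gene 1700054A03Rik, 24.2 kb from the start of Xpnpep1, fold enrichment 5.05), chr6:7943710-7943909 (no gene, 78.5 kb from Col28a1, 5.52) and chr4:4242709-4242908 (no gene, 103 kb from Penk, 5.78).
Site by Xpnpep1: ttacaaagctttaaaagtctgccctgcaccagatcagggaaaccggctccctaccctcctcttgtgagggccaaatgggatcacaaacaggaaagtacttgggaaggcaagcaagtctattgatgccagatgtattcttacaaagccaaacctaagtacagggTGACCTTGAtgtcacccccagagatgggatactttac
Site by Col28a1: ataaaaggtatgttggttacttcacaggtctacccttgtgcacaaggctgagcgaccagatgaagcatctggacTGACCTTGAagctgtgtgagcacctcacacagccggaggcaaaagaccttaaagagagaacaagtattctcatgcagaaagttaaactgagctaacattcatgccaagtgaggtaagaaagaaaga
Site by Penk: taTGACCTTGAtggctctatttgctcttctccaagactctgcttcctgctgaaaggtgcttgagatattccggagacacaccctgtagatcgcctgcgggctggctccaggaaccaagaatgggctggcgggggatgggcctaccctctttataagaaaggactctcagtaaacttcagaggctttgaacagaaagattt
The next set are excess day 10 peaks that were listed at day 5 and not in MEFs or ESCs. Capitals mark octamer matches, the sequence that Oct4 binds, and AP-1 matches, whose shares among excess peaks differed by origin. None of these sites has a MEF peak, the origin with more octamer and fewer AP-1 matches, so they do not show that difference. The octamer sites lie at chr12:103164321-103164520 (intron of Unc79, 29.1 kb from its start, fold 4.13) and chr4:91955219-91955418 (no gene, 191 kb from Izumo3, 5.03). The AP-1 sites lie at chr15:60509908-60510107 (no gene, 315 kb from Fam84b, 5.21) and chr1:122381120-122381319 (no gene, 813 kb from Ddx18, 4.95).
Octamer site by Unc79: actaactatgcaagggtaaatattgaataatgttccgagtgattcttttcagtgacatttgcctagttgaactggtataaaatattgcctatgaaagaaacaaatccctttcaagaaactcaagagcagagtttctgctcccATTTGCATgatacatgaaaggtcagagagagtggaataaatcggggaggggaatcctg
Octamer site by Izumo3: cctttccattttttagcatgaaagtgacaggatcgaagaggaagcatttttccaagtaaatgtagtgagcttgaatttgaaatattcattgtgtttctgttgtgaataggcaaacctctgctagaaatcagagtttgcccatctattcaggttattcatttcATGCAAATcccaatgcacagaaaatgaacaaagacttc
AP-1 site by Fam84b: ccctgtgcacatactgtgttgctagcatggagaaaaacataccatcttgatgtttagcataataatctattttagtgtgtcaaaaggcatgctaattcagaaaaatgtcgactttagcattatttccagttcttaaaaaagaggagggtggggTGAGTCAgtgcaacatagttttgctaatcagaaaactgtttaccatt
AP-1 site by Ddx18: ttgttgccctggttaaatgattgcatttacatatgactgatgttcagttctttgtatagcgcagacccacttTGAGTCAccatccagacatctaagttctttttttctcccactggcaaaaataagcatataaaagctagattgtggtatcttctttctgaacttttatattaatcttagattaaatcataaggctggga
The last is the lacked ESC peak with the highest score among those nearest to a naive pluripotency gene. It lies at chr8:43320961-43321160, in no gene, 13.7 kb from the start of Zfp42 (Rex1), with a fold enrichment of 7.35, and none of the 11 motifs searched matched in it.
Site by Zfp42: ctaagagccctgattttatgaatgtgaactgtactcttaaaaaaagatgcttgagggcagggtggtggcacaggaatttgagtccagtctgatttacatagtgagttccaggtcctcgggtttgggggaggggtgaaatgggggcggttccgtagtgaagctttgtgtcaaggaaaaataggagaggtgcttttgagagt

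Where the day 10 cells differed from ESCs was mostly away from promoters. Of ESC peaks farther than 1 kb from every annotated start site, called distal here, 79.5% were lacked (25465 of 32032), and of those within 1 kb, called near, 24.8% were lacked (4087 of 16454). The difference of 54.7 percentage points (53.9 to 55.4) had the same direction on 20 of 20 chromosomes. Excess day 10 peaks had the same split, 68.5% of distal peaks (14130 of 20640) against 15.3% of near peaks (2231 of 14586), a difference of 53.2 points (52.3 to 54.0) seen on 20 of 20 chromosomes. Distal peaks thus made up 86.2% of the lacked, 86.4% of the excess and 34.7% of the held ESC peaks. The lacked share ran from 53.4% on chromosome 11 to 65.1% on chromosome 14, and the excess share from 39.6% on chromosome 7 to 52.2% on chromosome 3.

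Lacked sites were separate places and not shifted edges of a common peak. The median distance from a lacked ESC peak to the nearest day 10 peak was 19.8 kb (quartiles 8.09 and 50.6), and 0.978% had one within 0.4 kb. From an excess peak to the nearest ESC peak the median was 14.5 kb, with 1.68% within 0.4 kb. Distal lacked peaks lay within a gene and outside exons in 42.0% and touched no gene in 48.5%, close to the 41.8% and 47.7% of distal held peaks. Of distal excess peaks, 50.3% lay within a gene and outside exons. Among distal peaks, a distance over 50 kb from any start site was found for 14.4% of lacked, 16.9% of excess and 11.3% of held ESC peaks.

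Peak height bore on the near sites more than on the distal ones. When ESC peaks were put into 5 equal parts by the deposited fold enrichment, the share lacked among near peaks went from 43.7% in the lowest to 10.7% in the highest part. Among distal peaks it went from 83.5% to 72.6%, so the highest distal ESC peaks were still mostly lacked. The excess share went from 32.7% to 4.76% for near and from 72.2% to 60.7% for distal day 10 peaks. The part played by sequencing depth, which the files do not give, was not tested.

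**Figure D1:**
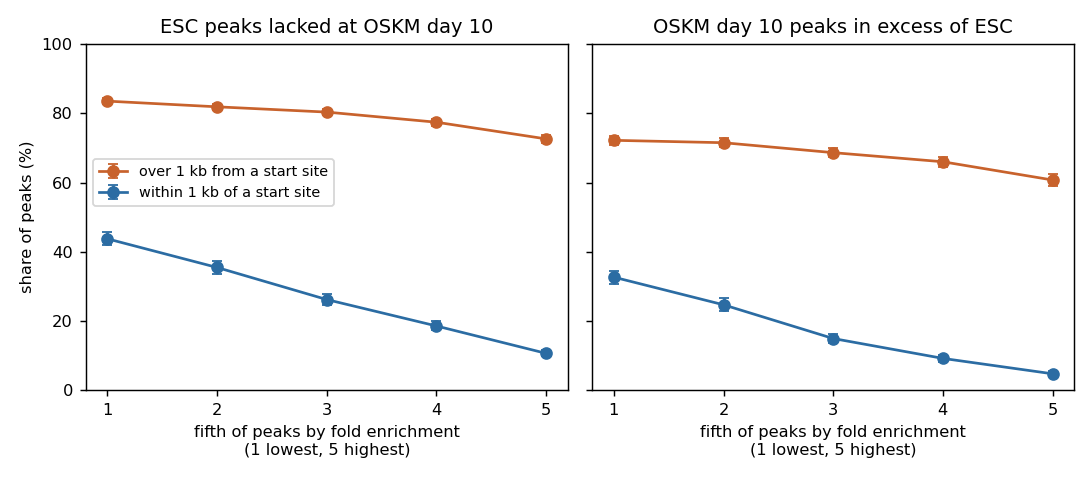
Share of ESC peaks lacked at day 10 and share of day 10 peaks in excess of ESCs (y axis, percent with 95% Wilson intervals) by the deposited fold enrichment (x axis, 5 equal parts from lowest to highest), for distal and near peaks. Distal lacked shares go from 83.5% to 72.6% and near ones from 43.7% to 10.7%.

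Lacked sites were in the main sites that MEFs did not have either. Of the lacked ESC peaks, 85.05% (25134) were listed neither in MEFs nor at day 5, 2.45% (725) were listed at day 5 and not in MEFs, and 12.5% (3693) were listed in MEFs. The last share was 5.72% when every list was limited to its 35226 highest-scoring peaks. The held ESC peaks were the reverse, with 80.6% listed in MEFs and 7.21% listed in neither. Of the 29537 ESC peaks without a MEF peak, 3678 were held at day 10, 12.45%, a share that was 12.3% for distal and 13.8% for near peaks. Of ESC peaks with a MEF peak, 80.5% were held, 56.1% of the distal and 91.8% of the near ones.

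How many ESC peaks day 10 cells had gained and lost relative to MEFs depended on the length of the lists, the MEF list having 56514 peaks. With all peaks, 3678 ESC peaks were gained (7.59%) and 3693 lost (7.62%), a net of -0.0309 points (-0.378 to 0.316). With every list limited to its 35226 highest-scoring peaks, 3980 were gained and 1091 lost, a net of 8.20 points (7.81 to 8.59). At near sites the direction itself turned, from -3.47 points (484 gained, 1055 lost) to 3.81 points (851 gained, 332 lost). It also turned, to 1.82 points, when 50% of both peaks had to overlap. At distal sites gains exceeded losses in both countings, by 1.74 points (3194 gained, 2638 lost) and by 10.97 points (3129 gained, 759 lost). With all peaks, the other ESC peaks were covered in both groups (15256) or in neither (25859).

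Excess day 10 peaks came from several sources. MEFs had 33.7% of them (5512), and the share was 61.6% for near and 29.3% for distal excess peaks. A further 43.8% (7162) were listed at day 5 and not in MEFs, and 22.5% (3687) in no other list. Among the excess peaks without a MEF peak, 66.0% had been open at day 5. Most excess sites were thus sites that the MEF list did not have.

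The classes differed in sequence make-up. Lacked peaks had a median width of 506 bp and excess peaks of 528 bp, against 804 bp for held ESC peaks. Mean GC was 48.1% for lacked, 45.0% for excess and 59.1% for held ESC peaks, and among distal peaks 47.1%, 43.7% and 49.2%. Excess peaks opened by day 5 without a MEF peak had a mean GC of 41.0%, whereas excess peaks with a MEF peak had 49.6%. Repeats marked the lacked sites. Of ESC peaks with over 50% of their bases repeat-masked, 91.2% were lacked (5072 of 5561, 90.4 to 91.9), against 58.7% of those with no masked base (4683 of 7984). For distal peaks alone the shares were 91.6% and 79.9%. MEFs had a peak at 3.15% of these repeat-rich ESC peaks. Repeat-rich peaks made up 17.2% of lacked, 2.58% of held and 3.15% of excess peaks. Repeats are prone to ambiguous mapping, and its part in these shares was not tested.

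Motifs were searched as exact letters on both strands in the central 200 bp of distal peaks. The letters were TCAAGGTCA for ESRRB, ATGCAAAT for the octamer, TGACTCA or TGAGTCA for AP-1, CCATTGT or CCTTTGT for SOX, ACATTCC or GCATTCC for TEAD, and CCACACCC, CCACGCCC, CCCCACCC or CCCCGCCC for KLF. The composite SOX-octamer was TTGT, 1 base and ATGCNAA, which overlaps SOX and octamer matches, and CTCF was taken by its core motif. In 200 bp windows of 32817 RefSeq promoters (GRCm38), the match shares were 0.277% for ESRRB, 1.38% for the octamer, 3.66% for AP-1, 6.42% for SOX, 4.78% for TEAD, 25.2% for KLF, 0.0609% for SOX-octamer and 0.463% for CTCF. A match is a description of letters and not a binding site.

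The ESRRB sequence, that of an orphan nuclear receptor of the pluripotency network, set lacked peaks apart. It was found in 1.75% of distal lacked peaks (445), in 0.457% of distal held ESC peaks (30) and in 0.177% of distal excess peaks (25). Flanking windows 1 kb away had it in 0.522%, 0.556% and 0.474%. The lacked share was 1.29 points above the held one (1.04 to 1.51, same direction on 19 of 20 chromosomes). Among peaks without a MEF peak it was 1.81% against 0.470%, a difference of 1.34 points (0.998 to 1.60, 18 of 20). With peaks of all positions the difference was 1.33 points, and it was 2.37 points when whole peaks were searched. TEAD matches were also more frequent in distal lacked than in distal held ESC peaks, 10.7% against 9.14% (1.54 points, 0.733 to 2.32, 17 of 20).

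Motifs of the exogenous factors behaved otherwise. KLF matches were fewer in distal lacked peaks, 9.28% against 15.2% of held peaks (difference -5.87 points, -6.82 to -4.95, 20 of 20). SOX matches were found in 13.8% of both classes (difference -0.0706 points, -1.02 to 0.849), and octamers in 3.09% and 2.86% (difference 0.228 points, -0.250 to 0.664). Among ESC peaks without a MEF peak, those held at day 10 carried more SOX matches than those lacked, 19.3% against 14.4% (difference of lacked minus held -4.89 points, -6.36 to -3.48, 18 of 20). KLF matches differed there too, 9.21% of lacked against 13.2% of held peaks. In these peaks the composite SOX-octamer was found in 0.845% of held and 0.429% of lacked peaks. CTCF, the insulator factor, had its motif in 1.50% of lacked and 3.03% of held distal peaks, but among those without a MEF peak in 1.13% and 1.22% (difference -0.0952 points, -0.557 to 0.262).

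Excess peaks split by origin. AP-1, the Fos and Jun dimer active in fibroblasts, had its sequence in 9.14% of distal excess peaks and in 6.05% of distal day 10 peaks held in ESCs (difference 3.09 points, 2.33 to 3.83, 19 of 20). With all positions the difference was 5.64 points. Among distal excess peaks the AP-1 share was 17.6% where MEFs had a peak (727 of 4138) and 5.65% where they did not (565 of 9992), 11.9 points apart (10.7 to 13.2, 20 of 20). TEAD matches were fewer in distal excess than in distal held day 10 peaks, 6.96% against 9.25% (difference -2.28 points, -3.12 to -1.48, 18 of 20). Within the distal excess peaks they were, like AP-1, more frequent with a MEF peak, 9.47% against 5.92%. The octamer went the other way, 1.91% with and 4.46% without a MEF peak (-2.55 points, -3.12 to -1.95, 19 of 20), as did SOX, 10.8% against 15.5%. For the octamer, the excess share over all positions was 1.97 points above that of held peaks, and 0.597 points above with distal peaks alone. Among distal excess peaks without a MEF peak, those open at day 5 had octamers in 4.48% and the others in 4.43%, a difference of 0.0557 points (-0.837 to 0.891) that counting error covers. AP-1 matches were found in 6.45% and 4.03% of them (difference 2.42 points, 1.50 to 3.29, 19 of 20). The printed sites by Unc79 and Izumo3 hold an octamer match and those by Fam84b and Ddx18 an AP-1 match, and none of them has a MEF peak.

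**Figure D2:**
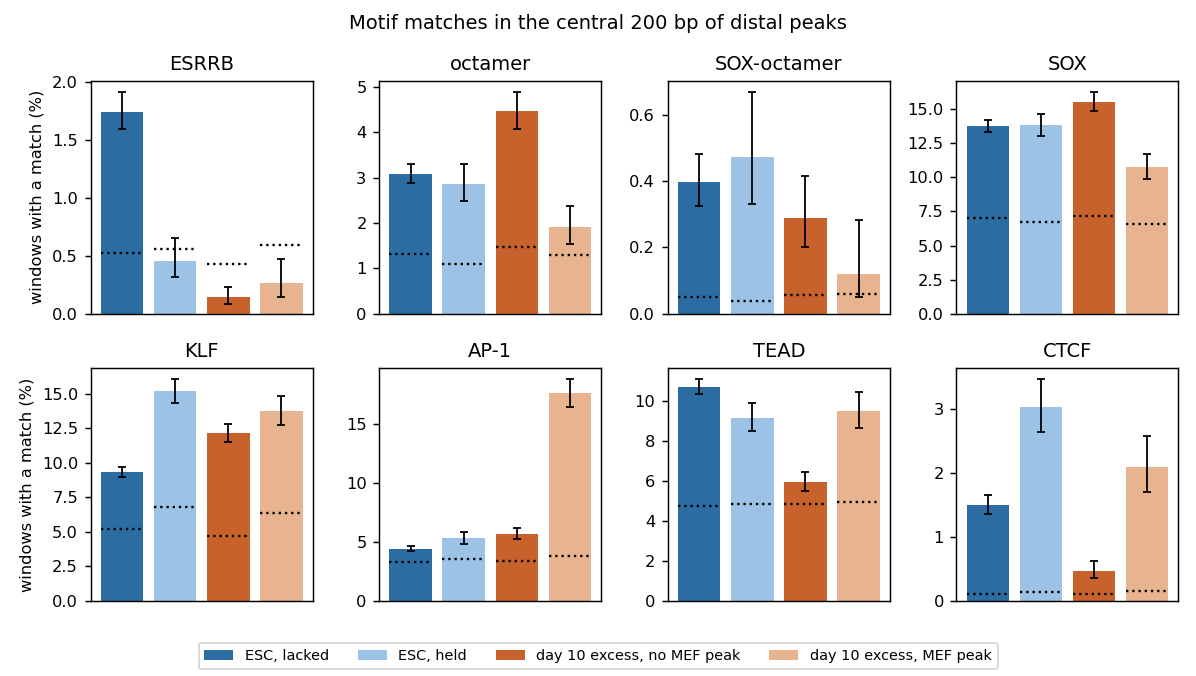
Share of distal peaks with each of 8 motifs in the central 200 bp (percent, 95% Wilson intervals), with dotted marks for windows 1 kb away. Bars are lacked ESC peaks, held ESC peaks, excess day 10 peaks without a MEF peak and excess day 10 peaks with one. ESRRB is at 1.75% in lacked and 0.457% in held ESC peaks. AP-1 is at 5.65% in excess peaks without a MEF peak and at 17.6% in those with one.

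The genes of the naive pluripotency network had the largest lacked share of the 10 lists described, with peaks given to the protein-coding gene with the nearest start site. Of 128 ESC peaks nearest to a naive regulator, 104 were lacked, 81.25%, where 60.9% of all ESC peaks were. The list had 35 day 10 peaks, 12 of them excess (34.3%, against 46.4% of all). For its distal ESC peaks alone the lacked share was 87.3% (89 of 102, 79.4 to 92.4) beside 79.5% of all, and for near peaks 57.7% beside 24.8%. When only peaks within 50 kb were counted, the share was 73.5%, beside 56.9% of all peaks within 50 kb of a protein-coding gene.

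Esrrb, the nuclear receptor whose motif is described above, had 16 ESC peaks, all lacked, and no day 10 peak (fold enrichment 2.04 to 4.38). MEFs had 4 of these 16 sites and day 5 none. Nr5a2, a nuclear receptor that can stand in for exogenous Oct4, lacked 18 of 20 ESC peaks, the farthest 458 kb from its start. The 2 held ones had been open at day 5 without a MEF peak. Klf5, a zinc-finger factor of self-renewal, lacked 15 of 17, with fold enrichments of 2.41 to 5.82 for the lacked and of 3.03 and 3.85 for the held ones. The highest ESC peak given to Klf5 was thus a lacked one, but it lay 211 kb from the start of Klf5. Closer in, the held start-site peak had a fold of 3.85 and a lacked peak 40.5 kb away one of 3.82.

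Sox2, one of the transduced factors, lacked 11 of 16 ESC peaks at its endogenous locus, and Pou5f1 lacked 1 of 3. Nanog lacked 3 of 5, Prdm14, a repressor of differentiation in naive cells, 7 of 8, and Tbx3, a T-box factor, 8 of 9. Zfp42, the marker Rex1, lacked 6 of 6. Tfcp2l1, a Grainyhead-family factor of the naive network, lacked 8 of 13. Nr0b1 and Tcl1 lacked all 3 and 2 of their ESC peaks, Klf2 and Dppa3 2 of 3 each and Sall4 2 of 4, and Zfp296 and Rex2 had no ESC peak. Start sites of naive genes were open in ESCs and not at day 10 for 6 of 11, where this held for 1201 of 12217 over all genes. MEFs had no start-site peak at 3 of the 6. Sox2 is counted among the 6, although a day 10 peak at 0.053 to 0.921 kb from its start overlapped the covering ESC peak.

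**Figure D3:**
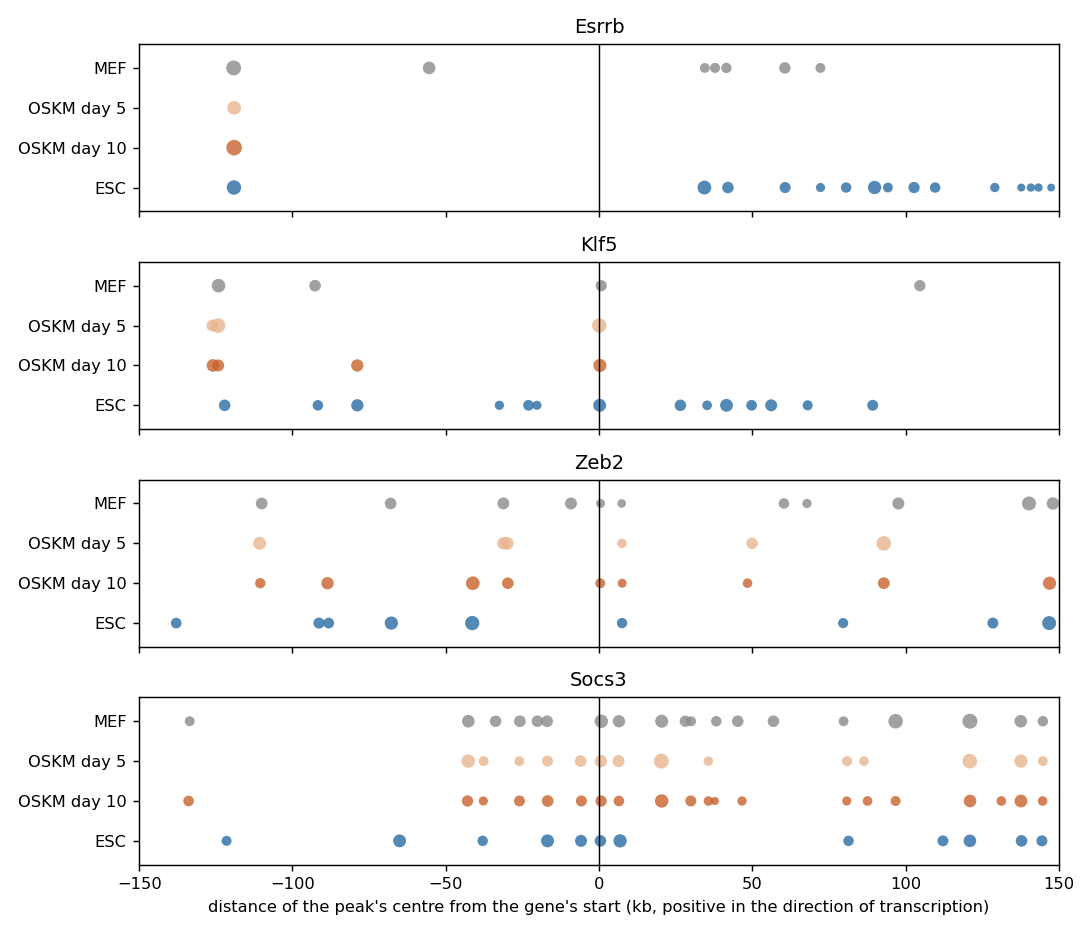
Peaks of the 4 lists around Esrrb, Klf5, Zeb2 and Socs3 (x axis, distance in kb from the annotated start of the gene, rows by group, dot size by fold enrichment). The 16 ESC peaks nearest to Esrrb have no counterpart in the day 10 row, and the excess day 10 peaks of Zeb2 and Socs3 have none in the ESC row.

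Late pluripotency markers lacked 75 of 104 ESC peaks (72.1%, beside 60.9% of all) and had 18 excess of 46 day 10 peaks (39.1%, beside 46.4%). Their distal lacked share, 81.8% (71.8 to 88.8), was close to the 79.5% of all, and within 50 kb the lacked share was 63.0%, beside 56.9% of all peaks within 50 kb of a protein-coding gene. Mycn, the Myc paralogue of ESCs, lacked 19 of 23, 16 of them distal. Fbxo15, a target of Oct4 and Sox2, lacked 11 of 13, and Sall1, a spalt zinc-finger factor, 11 of 15. The neighbouring germ cell and ESC genes Dppa2 and Dppa4 lacked 4 of 4 and 8 of 9. Trim71, an RNA-binding ubiquitin ligase, stood apart with 1 lacked of 5, and Tdh, the threonine dehydrogenase, had 1 of 3. Fgf4 lacked 4 of 5, L1td1 3 of 5 and Dppa5a 2 of 2. Utf1 lacked 1 of 3, Gdf3 and Lin28b 1 of 2 each, and Tdgf1 1 of 1, whereas Lin28a had no ESC peak.

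Epithelial genes lacked 21 of 37 ESC peaks (56.8%, 40.9 to 71.3) and had 7 excess of 23 day 10 peaks (30.4%, 15.6 to 50.9), both intervals holding the shares over all peaks (60.9% and 46.4%). Their distal lacked share was 69.6% (16 of 23). Epcam, an adhesion molecule, and Cldn4, a tight junction protein, had both of their 2 ESC peaks held and 2 and 1 excess peaks. Cdh1, the E-cadherin gene, lacked 2 of 4. The keratin genes Krt8 and Krt18 lacked 1 of 3 and 2 of 2. Grhl2, an epithelial transcription factor, lacked 4 of 5 and Dsp, the desmoplakin of desmosomes, 4 of 6. Start sites of this list were open in ESCs and not at day 10 for 4 of 7 genes, where this held for 1201 of 12217 over all genes. In the other direction, 2 of 5 start sites open at day 10, those of Epcam and Cdh3, were not open in ESCs. Over all genes this held for 1250 of 12266.

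Fibroblast and mesenchymal genes had the largest excess share of the 10 lists, 79 of 109 day 10 peaks (72.5%, beside 46.4% of all), and 29 of the 79 had a MEF peak. The distal excess share was 82.1% (69 of 84, 72.6 to 88.9, beside 68.5% of all), and within 50 kb the share of all the list's peaks was 54.5%, beside 42.2% of all such peaks. Zeb2, a repressor of E-cadherin, had 20 excess of 23 peaks, 15 of them open at day 5 and 6 in MEFs (fold enrichment 2.55 to 5.29). Its excess peaks reached as far as 1523 kb from its start. Cdh11, a mesenchymal cadherin, had 13 of 14, of which 13 were open at day 5 and 3 in MEFs. Most excess peaks of these 2 genes were thus places that MEFs did not list, which was also so of excess peaks in general. MEFs had 33.7% of all excess peaks and 29.3% of the distal ones.

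Cdh2, the N-cadherin gene, had 10 excess of 14 peaks. Prrx1, a limb mesenchyme factor, and Col3a1, a fibrillar collagen, had 5 of 5 each, with 2 and 3 in MEFs, and Dcn, the proteoglycan decorin, 5 of 6. Acta2, smooth muscle actin, had 2 of 2, both in MEFs. Twist1 and Col1a2 had 3 of 5 each, Zeb1 3 of 6, Fn1 3 of 7 and Snai1 2 of 4. Among the start sites of this list, 5 of 15 open at day 10 were not open in ESCs, all 5 with a MEF peak, and 0 of 10 open in ESCs were missing at day 10. Over all genes these counts were 1250 of 12266, 1055 of the 1250 with a MEF peak, and 1201 of 12217. The genes of this list also had ESC peaks of their own that were lacked, 64 of 93 (68.8%, distal 79.5%, or 51.4% within 50 kb), including 18 of 22 for Cdh2 and 9 of 13 for Fn1. Over all peaks the lacked share was 60.9%, with 79.5% for distal peaks and 56.9% within 50 kb of a protein-coding gene.

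**Figure D4:**
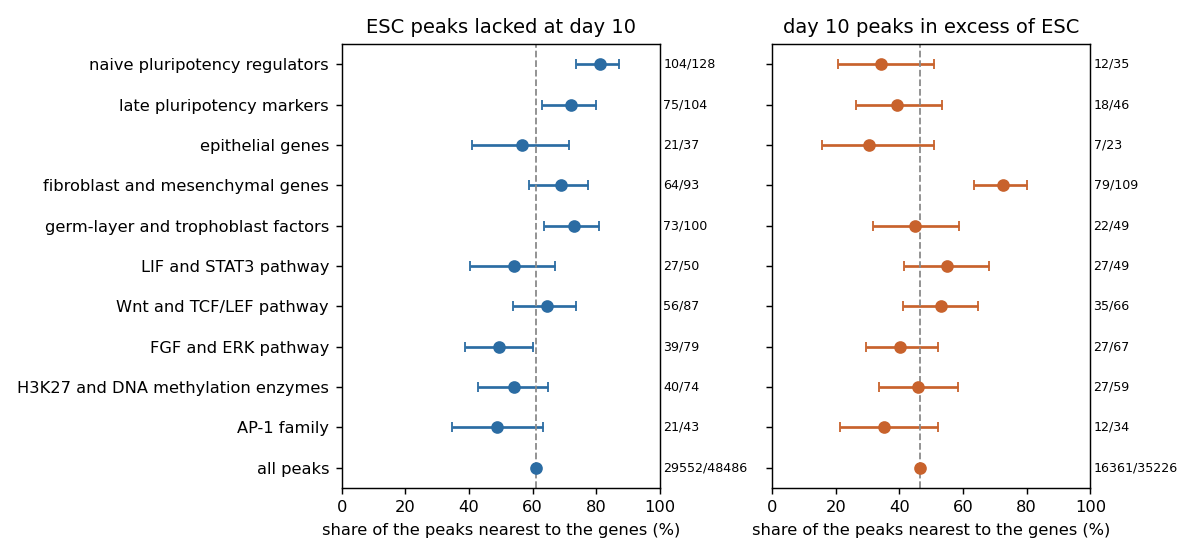
Lacked share of ESC peaks and excess share of day 10 peaks nearest to the genes of 10 lists (x axis, percent, 95% Wilson intervals, counts at the right). Dashed lines are all peaks, at 60.9% and 46.4%. Naive genes are the farthest right for lacked, with 104 of 128, and fibroblast genes for excess, with 79 of 109.

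Germ-layer and trophoblast factors lacked 73 of 100 ESC peaks (73.0%) and had 22 excess of 49 day 10 peaks (44.9%, or 26.5% within 50 kb). Of all peaks, 60.9% were lacked and 46.4% excess (42.2% within 50 kb of a protein-coding gene). Of their distal ESC peaks 77.8% were lacked, close to the 79.5% of all. Gsc and Esx1, homeobox factors of the organiser and of trophoblast, lacked 7 of 7 and 5 of 5. Otx2, a factor of the primed state and the anterior brain, lacked 9 of 10, Gata3, a trophoblast factor, 14 of 17, and Foxa2, of endoderm, 8 of 10. Sox17 lacked 5 of 6 and Gata4 3 of 3. Eomes, a T-box factor, lacked 2 of 7 and had no excess peak. Tfap2c, of trophoblast and naive cells, had 6 lacked of 11 and 5 excess of 10.

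In the LIF and STAT3 pathway, which sustains ESCs, 27 of 50 ESC peaks were lacked (distal 75.0%) and 27 of 49 day 10 peaks (55.1%, or 42.5% within 50 kb) were excess. Over all peaks, 60.9% were lacked (distal 79.5%) and 46.4% excess (42.2% within 50 kb of a protein-coding gene). The intervals of the LIF list, 40.4 to 67.0 and 41.3 to 68.1, hold the 60.9% and 46.4%. Lifr, the LIF receptor, lacked 7 of 8. Socs3, the feedback inhibitor of STAT3, lacked 0 of 3 and had 5 excess of 8, 3 with a MEF peak, and Stat3 itself lacked 0 of 1 and had 4 excess of 5. In the Wnt pathway 56 of 87 were lacked (64.4%, distal 74.6%) and 35 of 66 excess (53.0%, or 44.9% within 50 kb). Its intervals, 53.9 to 73.6 and 41.2 to 64.6, hold the shares over all peaks too. There Sp5, a Wnt target, lacked 6 of 6, Gsk3b, the kinase of beta-catenin, 10 of 12, and Axin2, the feedback scaffold, 7 of 9. Tcf7l1, the repressor of the pathway in ESCs, lacked 6 of 12. In the FGF and ERK pathway 39 of 79 were lacked (49.4%) and 27 of 67 excess, with Fgfr2 at 5 of 6 lacked and 7 of 8 excess, and with the ERK feedback genes Spry2 and Dusp6 at 6 of 13 and 5 of 9 lacked. For distal peaks alone the FGF list lacked 58.5% (45.1 to 70.7), beside 79.5% of all, so its distal ESC peaks were held more often than those of the whole.

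Enzymes of H3K27 and DNA methylation lacked 40 of 74 ESC peaks (54.1%, distal 66.7%) and had 27 excess of 59 day 10 peaks (45.8%). Over all peaks, 60.9% were lacked (distal 79.5%) and 46.4% excess. The intervals of this list, 42.8 to 64.9 and 33.7 to 58.3, hold the 60.9% and 46.4%. That of its distal lacked share, 53.4 to 77.8, lies below the 79.5%, as in the FGF list. Kdm6b, the H3K27 demethylase Jmjd3, lacked 1 of 4 ESC peaks and had 1 excess of 3 day 10 peaks. Jarid2, a Polycomb cofactor, lacked 14 of 19 and had 13 excess of 18. The 5-methylcytosine oxidases Tet2 and Tet1 lacked 12 of 18 and 3 of 6. Dnmt3a, a de novo methyltransferase, lacked 2 of 4 and had 6 excess of 8, 4 of them in MEFs. The AP-1 genes lacked 21 of 43 (48.8%, distal 66.7%) and had 12 excess of 34 (35.3%). Their intervals, 34.6 to 63.2 and 21.5 to 52.1, hold the shares over all peaks as well. Jun lacked 6 of 10, Fos 3 of 7, Jdp2 5 of 6 and Junb 0 of 2.

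Beyond the lists, the genes with the most lacked peaks were mostly large genes. Over all peaks, 60.9% of ESC peaks were lacked and 46.4% of day 10 peaks were excess. Tenm4, a teneurin, had 36 lacked of 51, Cntn5, a contactin, 32 of 37, Tbl1xr1, a transcriptional cofactor, 29 of 37 and Cntnap2, a neurexin relative, 26 of 30. Pard3, of cell polarity, had 25 of 28 and Plcb4, a phospholipase, 25 of 27. Reep3, Etl4, Pcmtd1, Cdh9, Magi1, Oxr1, Ythdf3, Cobl and Pdcd6ip had 22 to 25 lacked, of 24 to 34 ESC peaks each. The most excess peaks were nearest to Zfhx3 and Zfp608, zinc-finger factors, with 23 of 28 and 23 of 26, then Zeb2 with 20 and Mef2c, a factor of muscle and neural crest, with 19 of 27. Of the 19 of Mef2c, 16 were open at day 5 and 4 in MEFs. The ephrin gene Efna5 had 18 of 23, only 1 in MEFs, and Maml3, a Notch coactivator, 18 of 20. Adgrl2, Efnb2, Foxp1, Map3k7, Robo2, Tenm4, 2010111I01Rik, Btbd3 and Cdh13 had 16 or 17 excess, of 18 to 32 day 10 peaks each. Of 21911 protein-coding genes, 15956 had an ESC peak, 10887 a lacked and 7229 an excess peak, and 5241 had both. Genes with many peaks can have both by number alone, and whether 5241 is more than that was not tested.

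Among 2900 genes with at least 5 ESC peaks, 189 had all of them lacked and 12 had none lacked. Of all ESC peaks 60.9% were lacked, and how many such genes the overall shares alone would give was not tested. Among 1807 genes with at least 5 day 10 peaks, 64 had all excess, where 46.4% of all day 10 peaks were excess. Chosen after their values were seen, the former group was led by Adam6a (18 ESC peaks, in the immunoglobulin heavy chain region), Esrrb (16) and Amd2, Nmbr and Sdk2 (14 each), and the latter by Pcdh15 (14) and Trim52 (10).

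Some lacked and excess peaks stood in runs. The classes differ in number (29552 and 16361 peaks), which alone makes groups more frequent in the larger one. Whether either class groups more than ESC or day 10 peaks in general was not tested. Grouped at gaps of up to 10 kb, 28.9% of lacked and 19.3% of excess peaks lay in groups of 2 or more, and 46 lacked and 8 excess groups had at least 5 peaks. The densest lacked runs were at chr8:3535842-3580035 (8 peaks by C330021F23Rik and Pnpla6, none in MEFs, at day 5 or at day 10), chrX:50590899-50632726 (8 by Olfr1324), chr14:122263073-122300574 (7 by Clybl), chr13:113830874-113866250 (7 by Arl15), and a run of 7 at the start sites of Pcdha genes, the alpha protocadherins of neuronal identity. The excess runs were by Mbnl2 (6 peaks, chr14:120277163-120308679, 4 in MEFs) and, with 5 each, by Camk2d, Ndst1 with Rps14, Dusp10 and Socs3. Socs3 had its run at chr11:117923226-117950090, 3 of the 5 with a MEF peak.

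At start sites the groups differed less. A peak covered a start site of 12234 genes in ESCs and of 12284 at day 10, with 11032 in both, 1202 in ESCs only and 1252 at day 10 only. By symbol, 1201 genes were open in ESCs only, and for 947 of them no day 10 peak touched the covering peak. Of these 947, 439 (46.4%) had a MEF start-site peak and 492 (52.0%) had one neither in MEFs nor at day 5. Of the 1250 genes open at day 10 only, 735 were untouched by an ESC peak, 604 of these (82.2%) with a MEF start-site peak. Start sites open at day 10 and not in ESCs were thus mostly open in MEFs as well, which does not set them apart. Among near day 10 peaks held in ESCs, a count of peaks and not of genes, 96.2% had a MEF peak.

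The 15 highest-scoring ESC-only start sites held 12 that no day 10 peak touched, and 6 of the 15 belonged to genes that RefSeq calls zinc finger proteins. They were Zfp345, Gm14124, Gm14139, Gm14393, Zfp936 and 2410141K09Rik, with fold enrichments of 5.75 to 7.96. Over the whole family the share was lower than over all genes, with 21 of 474 ESC start sites untouched at day 10 (4.43%, 2.92 to 6.68) against 947 of 12217 for all genes (7.75%), a count made after the values were seen. Zfp345, Gm14124 and Gm14139 are neighbours at chr2:150181237-150485631, and whether reads were shared among copies was not tested. Abcb1a, a drug efflux pump, Grik2, a kainate receptor, and Mageb16, Gm2381, Gm6871 and Gm14443 made up the rest of the untouched ones, and Osbp, Cd38 and Asic3 had peaks touched by a day 10 peak beside the start. The 15 highest-scoring day 10-only start sites, with folds of 3.26 to 5.55, had 14 with a MEF peak and 2 untouched by an ESC peak, 1600002K03Rik and 2310057N15Rik. The others, among them Hnrnpa1, Hist1h1e, Rab40c, Prx and Nrxn2, had covering peaks that an ESC peak touched away from the start site. Acta2, outside these 15 and looked up after its values were seen, was among the 735 untouched ones, with a fold of 4.20.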

How the data were processed

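ATAC-seq peaks of 4 groups with 2 libraries each were used. Per the submitters' processing notes reads were aligned to mm10 with Bowtie2 2.2.0, whereas the methods name another version, and the mapping quality filter also differs between them. The peak caller, its settings and any shift for the transposase cut are not given in the sources used here. The authors deposited 1 broad-peak list per group with a score, a fold enrichment (ratio) and −log10 p and q values, the p values not used here, and the names in each list come from replicate 1, as if the libraries had been intersected. Depth is unknown, and nothing says that the libraries came from separate cultures.

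Lists were compared at 1 bp, peaks were placed against the GENCODE release 21 start sites (132670) and the GRCm38 sequence, and each was given to the protein-coding gene with the nearest start site. Named were the genes of 10 lists, the 15 genes with the most lacked and the most excess peaks, the 15 highest-scoring start sites of each kind (at most 50% of the peak repeat-masked) and the genes at the 5 largest runs. Some list members are counted in the totals and not reported here by name. The members and lists were chosen with earlier results of these data known. Python 3.11.15, numpy 2.4.6, pandas 2.3.3, scipy 1.17.1, pysam 0.24.0 and matplotlib 3.10.9 were used, and the scripts were tested on simulated data. Alternatives were 50% overlap, gaps of 400 bp, higher-scoring and equal-length lists, no repeat-rich peaks, a 5 kb limit, no sex chromosomes, whole-peak or distal motifs and a 50 kb gene window.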

Additional observations from a re-analysis of the deposited data

How the results depend on the processing

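No paired analysis was possible because each list holds both libraries, and leaving out each replicate was not run for the same reason. Of 70 values under other settings, 29 lay inside the interval of the reported value, and leaving out the sex chromosomes moved none outside it. The 5 results that are differences between classes kept their sign in 20 of 20 values. Shares cannot change sign. With 50% overlap of both peaks, the lacked share was 70.8% and the excess share 59.8%, their distal minus near differences 48.6 and 49.4 points, the MEF shares of lacked and excess peaks 8.43% and 25.0%, and the share of ESC peaks without a MEF peak that was held 11.4%. With gaps of 400 bp the lacked share was 60.4%, the excess share 45.7%, and the MEF shares 13.7% and 34.7%. With the higher-scoring 50% of each list, these values, in the order of the 50% overlap, were 59.7%, 44.7%, 61.1 and 50.2 points, 10.4%, 41.6% and 9.30%. With lists of equal length they were 54.2%, 54.3%, 57.7 and 51.3 points, 5.72%, 28.0% and 18.1%, the first pair being near equal by construction. Without peaks over 50% repeat-masked the lacked share was 57.2%, the differences 53.6 and 54.3 points, the MEF share of lacked peaks 14.6% and the held share of ESC peaks without a MEF peak 13.3%. With 5 kb as the limit of near sites the differences were 40.2 and 43.3 points. Whole peaks gave motif differences of 2.37 (ESRRB), 6.99 (AP-1) and 2.47 points (octamer), and distal peaks alone 3.09 (AP-1) and 0.597 (octamer). Peaks within 50 kb of a gene gave lacked shares of 73.5% (naive) and 51.4% (fibroblast) and excess shares of 54.5% (fibroblast) and 26.5% (germ-layer). The net of ESC peaks gained over lost relative to MEFs, examined after seeing the data, did change sign. For all, near and distal peaks it was 2.37, 1.82 and 2.66 points with 50% overlap, 8.20, 3.81 and 10.97 with lists of equal length, and -0.697, -5.15 and 2.74 with the higher-scoring 50%. For all and distal peaks it was -0.627 and 0.974 with gaps of 400 bp, and -0.862 and 0.811 without repeat-rich peaks. The cause of these moves was not tested. What depth limits cannot be known from these lists: a site missing from a list is not shown to be closed.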
